A study of Mus musculus with 8 samples.

Results

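Ankrd23, Ankrd1 and Ankrd2 encode the muscle ankyrin repeat proteins, and they are the 3 genes described here, taken by name from a table of 54091 genes. All 3 were among the 15657 genes tested, those whose normalized count averaged at least 10. RNA had been sequenced from white quadriceps, the pale, largely fast-twitch portion of that thigh muscle. The mice were males of 11 to 14 weeks, fed 60% fat for 7 days. Mice with the genotype CKM Cre, labelled as an Acot2 knockout in muscle, gave 4 knockout libraries (replicates 5 to 8), and 4 control libraries (replicates 1 to 4) were from Loxp/Loxp mice for which no Cre is given. CKM is the symbol of muscle creatine kinase, a gene active in skeletal muscle and in the heart. All mice of both groups ate the high-fat diet. Cre was named in the knockout mice only, so an effect of Cre itself and the loss of Acot2 cannot be told apart. Whether every library is from a different animal is not given in the sources used here, and p-values measure only the spread among libraries. The 3 genes were picked with the contrast between the groups already known, so their own differences are described and not tested.

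The muscle ankyrin repeat proteins are a small family that sits on the elastic I-band part of titin, the giant spring protein of the sarcomere, and that can also enter the nucleus and act with transcription regulators. Ankrd1, also called CARP, is abundant in the heart and is induced in skeletal muscle by stretch, injury and denervation. Ankrd2, also called Arpp, is the member of slow-twitch fibres and responds to stretch. Ankrd23, also called DARP, was described from work on diabetic muscle and heart, and its level is known to respond to metabolic state. Acot2, the gene deleted here, encodes a thioesterase of mitochondria, which hydrolyses long-chain acyl-CoA to fatty acid and coenzyme A.

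Acot2 had 325, 273, 256 and 354 normalized counts in knockout replicates 5 to 8, against 2179, 3348, 4165 and 2166 in control replicates 1 to 4. It fell by 3.24 on the log2 scale (standard error 0.20, limma, adjusted p = 4.72e-06), and no other gene passed an adjusted p of 0.05 with all 8 libraries. That count rests on single libraries: 867 genes were called higher and 855 lower without control replicate 1, and 1024 higher and 1024 lower without control replicate 2. With sample quality weights 593 were called higher and 608 lower. With all libraries weighted equally, genes called lower were 0.00639% of those tested and genes called higher were 0%, while 13.3% and 13.6% had an unadjusted p under 0.05 in those directions. Markers of fast fibres dominated every library in sum, with 9481120 to 12312400 normalized counts over 12 fast-fibre markers against 22226 to 113151 over 10 slow-fibre markers. The count of Tnnc2, fast troponin C, went the other way, with 74 to 129 over the libraries against 821 to 8550 for its slow counterpart Tnnc1. Whether reads of Tnnc2 were left out of this count, as can happen in exons that genes share, was not tested. The fast myosin Myh4 averaged 2706180 ± 286453 normalized counts in knockout libraries and 3181150 ± 494417 in control libraries (SD, n = 4 each), while slow myosin (Myh7) averaged 3131 ± 2623 in knockout libraries and 5428 ± 6524 in control libraries. Control replicates 3 and 4 stood apart from the other libraries, at 55.2 and 56.1 along principal component 1, which held 34.5% of the variance, with the rest between -38.6 and 0.56. They also had the most reads, 85095806 and 109101290, against 55283997 to 74996040 in the other libraries. The part of read depth was not tested. Knockout replicate 8 carried transcripts of heart muscle. Myl7, an atrial myosin light chain, had 921 reads there, 0 in knockout replicates 5 to 7 and at most 5 in a control library.

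The 3 genes have the same exon plan. Each principal transcript has 9 exons, and in each gene exons 5 to 8 are 99 coding bases long, which is 33 codons, the length of 1 ankyrin repeat. Ankrd23 (ENSMUSG00000067653.12) lies on the minus strand of chromosome 1 from 36530188 to 36536883 (GRCm38, GENCODE M21). Ankrd1 (ENSMUSG00000024803.9) lies on the minus strand of chromosome 19 from 36111961 to 36120099, and Ankrd2 (ENSMUSG00000025172.3) on the plus strand of the same chromosome from 42036000 to 42045110. Exons 7 and 8 are shown because they carry most of the coding sequence on which the Ankrd23 count can rest and because they show how far the 3 genes differ. Capitals mark bases that are the same in all 3 genes. The exon 7 sequences come from chr1:36531909-36532007 (minus strand), chr19:36115199-36115297 (minus strand) and chr19:42043753-42043851 (plus strand), and those of exon 8 from chr1:36531723-36531821 (minus strand), chr19:36114977-36115075 (minus strand) and chr19:42044043-42044141 (plus strand). All are written 5′ to 3′ on the gene's strand.
Ankrd23 exon 7: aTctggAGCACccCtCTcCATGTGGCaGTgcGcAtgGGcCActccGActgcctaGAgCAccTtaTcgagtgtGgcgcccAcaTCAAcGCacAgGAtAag
Ankrd1 exon 7: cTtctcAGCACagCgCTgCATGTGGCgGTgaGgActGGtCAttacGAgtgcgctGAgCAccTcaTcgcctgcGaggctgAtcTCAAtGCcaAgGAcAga
Ankrd2 exon 7: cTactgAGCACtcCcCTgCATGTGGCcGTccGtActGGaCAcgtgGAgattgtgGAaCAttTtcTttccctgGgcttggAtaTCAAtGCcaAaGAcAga
Ankrd23 exon 8: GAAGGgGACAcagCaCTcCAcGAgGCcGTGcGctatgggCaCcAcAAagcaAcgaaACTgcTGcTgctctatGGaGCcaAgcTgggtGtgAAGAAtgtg
Ankrd1 exon 8: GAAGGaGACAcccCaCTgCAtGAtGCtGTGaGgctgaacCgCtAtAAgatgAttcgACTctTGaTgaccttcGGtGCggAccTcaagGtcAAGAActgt
Ankrd2 exon 8: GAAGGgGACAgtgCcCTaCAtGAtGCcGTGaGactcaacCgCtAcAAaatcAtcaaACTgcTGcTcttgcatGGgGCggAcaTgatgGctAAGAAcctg

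In exon 7, 45 of 99 bases (45.5%) were the same in all 3 genes, and in exon 8 46 of 99 (46.5%). The shared bases fall in short runs spread along both exons. Over the aligned coding sequences, identity was 60.4% between Ankrd23 and Ankrd1 (894 aligned bases), 62.1% between Ankrd23 and Ankrd2, and 64.8% between Ankrd1 and Ankrd2. No window of 50 bases in the transcripts of Ankrd1 (0 of 3173) or Ankrd2 (0 of 1089) occurred in another annotated gene. Of the 2693 windows of Ankrd23, 2020 (75.0%) did, 2015 of them in the overlapping gene Gm42417. No window was shared among the 3 family members, so reads of one could not pass for reads of another by exact matches of that length.

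The count of Ankrd23 rests on a small portion of the gene. Gm42417, a gene annotated on the same strand (chr1:36530193-36539429), shares 2109 of the 2697 exon bases of Ankrd23 (78.2%), and its remaining 218 exon bases lie in Ankrd39. Gm42417 was listed at 0 in all 8 libraries. Of the 680 genes whose exon bases all lie in exons of other genes on their strand, 673 (98.97%) were at 0 in every library. The same held for 441 of the 445 genes (99.1%) that lie wholly within exons of the opposite strand only, against 54.7% of the 41623 genes with no shared base. These are the values that a count would give that leaves out reads lying in more than 1 gene and takes no account of strand. The bases that belong to Ankrd23 alone number 588. They are 99 bases in each of exons 7 and 8 and 58 in exon 1, all of the principal transcript, 327 in the first exon of another Ankrd23 transcript, and 5 at the 3′ end. Exon 7 is absent from 1 annotated Ankrd23 transcript, Ankrd23-204. A lower level of all Ankrd23 transcripts and a lower use of the exons it holds alone therefore cannot be told apart from these counts. Ankrd1 and Ankrd2 share 0 exon bases with other genes.

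**Figure D1:**
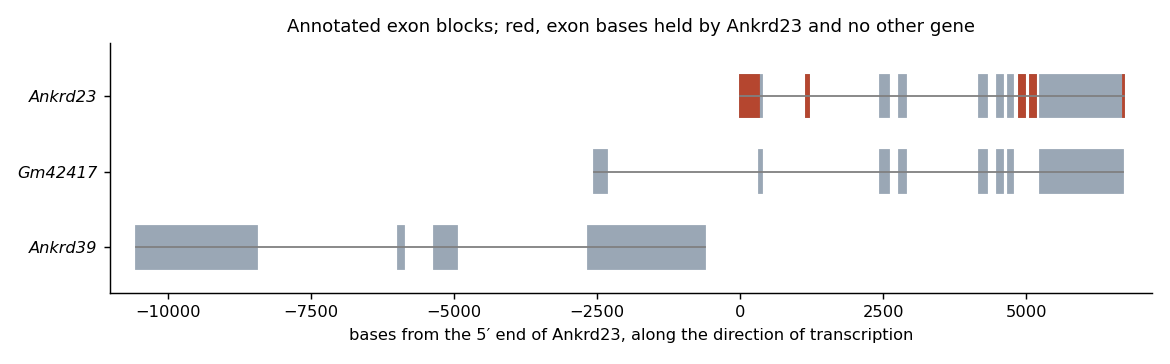
Annotated exon blocks of Ankrd23, Gm42417 and Ankrd39 (vertical positions) along the direction of transcription, in bases from the 5′ end of Ankrd23 (horizontal axis). Red marks the 588 exon bases that Ankrd23 shares with no gene, and grey marks all other exon bases, so most of the Ankrd23 exon length is seen to be shared with Gm42417.

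The promoters differ within the family. Windows of 300 bases, from 250 before to 50 after each annotated start, were taken from RefSeq (GRCm38.p6) because the 3 genes had different patterns over the libraries. They were searched on both strands for CATTCC, the MCAT element bound by TEAD factors, for TATAAA and for the E-box CANNTG, the element of myogenic factors. Capitals mark matches to CATTCC and TATAAA, and on the opposite strand the first of these reads as GGAATG. Ankrd23 has 2 annotated starts, with windows at chr1:36536507-36536806 and chr1:36535690-36535989 (both minus strand). The 250 bases before the first start lie within the 327 exon bases (chr1:36536557-36536883) that GENCODE gives to Ankrd23 alone. RefSeq thus has as upstream sequence what GENCODE has as exon, and which of them the counting used is not given. The Ankrd1 window is chr19:36119795-36120094 (minus strand) and that of Ankrd2 is chr19:42035777-42036076 (plus strand).
Ankrd23 start 1: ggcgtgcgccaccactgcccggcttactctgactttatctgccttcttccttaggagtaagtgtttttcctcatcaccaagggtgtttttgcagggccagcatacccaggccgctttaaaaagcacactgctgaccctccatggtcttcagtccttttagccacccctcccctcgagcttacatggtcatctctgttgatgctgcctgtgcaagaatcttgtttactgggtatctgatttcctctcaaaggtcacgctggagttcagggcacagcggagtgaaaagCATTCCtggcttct
Ankrd23 start 2: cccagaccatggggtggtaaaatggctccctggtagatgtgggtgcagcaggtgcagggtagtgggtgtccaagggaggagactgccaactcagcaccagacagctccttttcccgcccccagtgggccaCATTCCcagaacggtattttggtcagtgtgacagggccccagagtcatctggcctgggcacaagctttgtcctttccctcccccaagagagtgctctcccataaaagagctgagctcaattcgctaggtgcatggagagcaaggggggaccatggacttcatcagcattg
Ankrd1: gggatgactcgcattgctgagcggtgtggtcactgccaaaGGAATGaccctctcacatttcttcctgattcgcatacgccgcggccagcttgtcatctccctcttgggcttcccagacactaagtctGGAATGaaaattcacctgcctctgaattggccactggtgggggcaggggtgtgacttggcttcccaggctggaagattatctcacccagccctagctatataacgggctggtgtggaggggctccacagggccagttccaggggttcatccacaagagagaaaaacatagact
Ankrd2: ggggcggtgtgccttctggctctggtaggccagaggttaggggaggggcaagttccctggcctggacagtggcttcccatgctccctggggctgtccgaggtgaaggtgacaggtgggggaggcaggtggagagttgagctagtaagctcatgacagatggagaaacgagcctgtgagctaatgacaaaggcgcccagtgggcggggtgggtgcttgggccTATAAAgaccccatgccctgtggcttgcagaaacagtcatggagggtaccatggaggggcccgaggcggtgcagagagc

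CATTCC occurred 1 time in each Ankrd23 window, beginning at base 37 after the first start and at base -120 of the second. It occurred 2 times in the Ankrd1 window, at -210 and -123, and 0 times in that of Ankrd2. TATAAA occurred only in the Ankrd2 window, at -29. Of E-boxes, the first Ankrd23 window held 0 and the second 2, that of Ankrd1 1 and that of Ankrd2 3. Of the 32851 RefSeq windows of this length, 14.7% held CATTCC, 13.6% TATAAA and 72.3% an E-box. A match describes the letters only, and a missing match says nothing about a factor.

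Ankrd23 was lower in every knockout library. It had 4243, 3647, 3528 and 3692 normalized counts in knockout replicates 5 to 8, against 5531, 5491, 6675 and 6213 in control replicates 1 to 4. The groups did not overlap, and 1248 normalized counts separated the highest knockout library (replicate 5) from the lowest control library (replicate 2). The means were 3778 ± 318 in knockout libraries and 5977 ± 571 in control libraries (SD, n = 4 each), so the knockout level was 63.3% of the control level. On the log2(normalized count + 1) scale the difference was -0.66 with a standard error of 0.11. Within each group the libraries lay close together, the highest being 1.20 times the lowest among knockout libraries and 1.22 times among control libraries. Of all tested genes, 5.86% had a lower difference, and the median difference of all genes was 0.00. The groups did not overlap for 1 of the 3 family members, Ankrd23. Over all tested genes, every knockout library was lower for 7.06% and every knockout library was higher for 6.06%. The gene was chosen from this contrast, so nothing is read from these shares.

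Ankrd1, the stretch- and injury-induced member, overlapped between the groups. Its normalized counts were 772, 764, 954 and 1999.7 in knockout replicates 5 to 8, against 843, 841, 833 and 1347 in control replicates 1 to 4. A single library in each group was high, knockout replicate 8 and control replicate 4, and the other 6 lay between 764 and 954. The means were 1122 ± 592 in knockout libraries and 966 ± 254 in control libraries (SD, n = 4 each), with a log2 difference of 0.12 and a standard error of 0.28. Without knockout replicate 8 the difference was -0.19, and without control replicate 4 it was 0.30.

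Ankrd2, the slow-fibre member, varied widely within both groups. It had 5022, 6544, 5778 and 9814 normalized counts in knockout replicates 5 to 8, against 4512, 5944, 9582 and 3649.6 in control replicates 1 to 4. Knockout replicate 8 and control replicate 3 were the highest and control replicates 4 and 1 the lowest, so the groups overlapped. The means were 6789.6 ± 2110.1 in knockout libraries and 5922 ± 2617 in control libraries (SD, n = 4 each), with a log2 difference of 0.25 and a standard error of 0.29. Without control replicate 3 the difference was 0.51, and without control replicate 4 or without knockout replicate 8 it was 0.05.

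**Figure D2:**
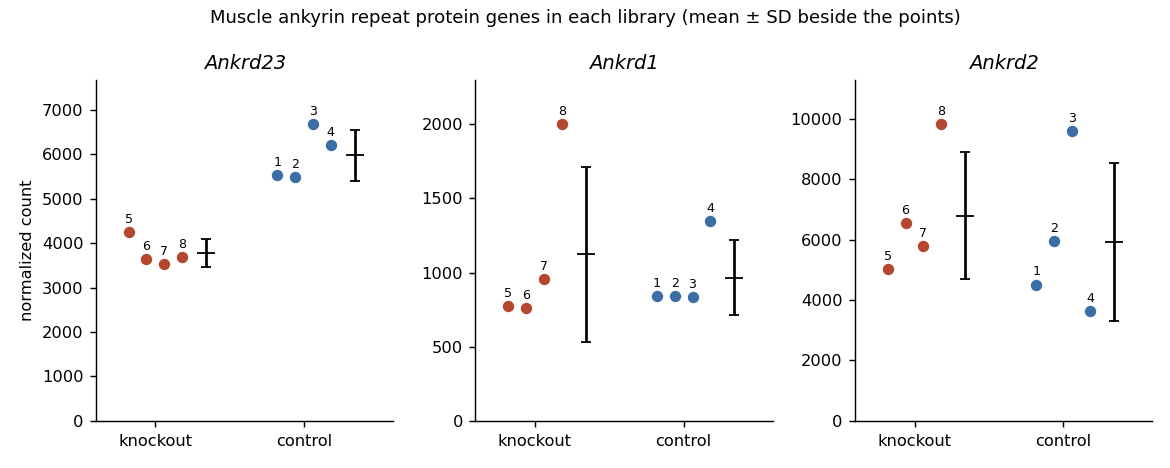
Normalized count (vertical axes, from 0) of Ankrd23, Ankrd1 and Ankrd2 in each library, knockout left of control, with the replicate number at each point and mean ± SD (n = 4) beside the points. The knockout libraries lie between 3528 and 4243 for Ankrd23, below all control libraries, while the groups overlap for Ankrd1 and Ankrd2.

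The 3 genes were well covered, with 2828 to 9152 reads per library for Ankrd23, 592 to 1985 for Ankrd1 and 4276 to 11561 for Ankrd2. By mean normalized count, Ankrd23 stood above 87.6% of the tested genes, Ankrd1 above 60.6% and Ankrd2 above 90.5%. Levels of different genes are compared per kilobase of exon. Over all exon bases, Ankrd2 had 5966 ± 1854 normalized counts per kilobase in knockout libraries and 5204 ± 2300 in control libraries. Ankrd23 had 1401 ± 118 in knockout libraries and 2216 ± 212 in control libraries, and Ankrd1 had 389 ± 205 in knockout libraries and 335 ± 88.1 in control libraries (SD, n = 4 each). Over the 588 bases that it holds alone, Ankrd23 had 6424 ± 541 per kilobase in knockout libraries and 10166 ± 971 in control libraries. Of these bases, 327 lie in the first exon of a transcript other than the principal one, so the length is too long if that exon is not used. Its use was not tested. Whether reads that reach from the 588 bases into shared ones were counted is not given, so this length is uncertain for that reason too. Ankrd1 was thus the lowest of the 3 by either length. The order of Ankrd23 and Ankrd2 depended on the length: Ankrd2 was above Ankrd23 per base of all exons in both groups, and Ankrd23 was above Ankrd2 in the means of both groups per base that it holds alone. In knockout libraries the mean of Ankrd23 by that length lay within 1 SD of the mean of Ankrd2. Of the summed normalized count of the 3 genes, Ankrd23 made up 42.3%, 33.3%, 34.4% and 23.8% in knockout replicates 5 to 8, against 50.8%, 44.7%, 39.1% and 55.4% in control replicates 1 to 4. The lowest control share, that of replicate 3, lay below the highest knockout share, that of replicate 5, so this share overlapped between the groups although the Ankrd23 count did not.

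The difference of Ankrd23 kept its sign in all 22 alternative treatments of the data, at -0.83 to -0.54. Because its groups did not overlap, leaving libraries out could not change that sign, and nothing is read from it. It was -0.55 without control replicates 3 and 4, the pair that stood apart, and -0.54 without these and knockout replicate 8. Ankrd1 ranged from -0.19 to 0.30 and Ankrd2 from -0.08 to 0.51 over the same alternatives, so neither kept a sign.

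**Figure D3:**
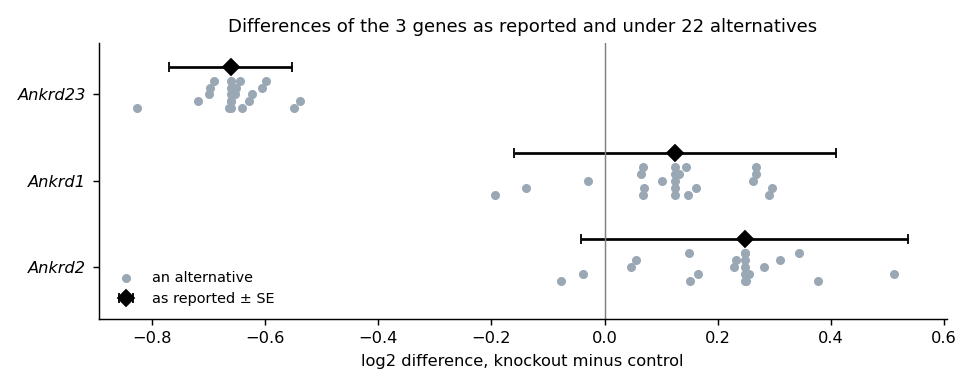
Log2 difference, knockout minus control (horizontal axis), of Ankrd23, Ankrd1 and Ankrd2. The diamond is the value as reported with its SE and each grey point is 1 of 22 alternatives. All points of Ankrd23 lie between -0.83 and -0.54, and those of Ankrd1 and Ankrd2 lie on both sides of 0.

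The genes beside Ankrd23 had smaller differences than Ankrd23, but Ankrd23 was chosen from this contrast, so nothing is read from that. Ankrd39, another ankyrin repeat gene, which lies 623 bases away, had 318, 356, 307 and 335 normalized counts in knockout replicates 5 to 8, against 448, 354, 293 and 335 in control replicates 1 to 4. Its groups overlapped, with a difference of -0.10 and a standard error of 0.16 on the log2 scale. Cnnm3, which lies 1950 bases away on the other side, had a difference of -0.10 with a standard error of 0.13. Of the genes flanking Ankrd1, Rpp30, a subunit of ribonuclease P, had 989 to 1143 normalized counts in knockout libraries and 893 to 982 in control libraries, which did not overlap, with a difference of 0.21. Over all tested genes, every knockout library was higher for 6.06%. Pcgf5, a Polycomb group subunit, had a difference of -0.24. Of those flanking Ankrd2, Ubtd1 and Hoga1 had differences of 0.11 and 0.03. None of the 6 neighbours passed an adjusted p of 0.05.

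Cardiac actin was high in the libraries where Ankrd1 was high. Actc1, its gene, had 7779, 15614, 35902 and 64342 normalized counts in knockout replicates 5 to 8, against 12297, 11809, 8177 and 28638 in control replicates 1 to 4. Its 3 highest libraries (knockout replicates 8 and 7 and control replicate 4) were also the 3 highest for Ankrd1. The mean log2 deviation of the 12 tested heart markers was 3.27 in knockout replicate 8. It was -0.45 in knockout replicate 7, between those of knockout replicates 6 (-0.47) and 5 (-0.43). In control replicate 4 it was -0.11, against -0.99 to -0.19 in the other control libraries. Of the 18 heart markers, 17 were highest in knockout replicate 8, and the summed count of the 18 was 77106 there, against 9248 to 37323 in the other 7 libraries. Actc1 alone gave most of this sum, 64342 of 77106 in knockout replicate 8 and 35902 of 37323 in knockout replicate 7. Nppa, the atrial natriuretic peptide, had 1648 normalized counts in knockout replicate 8 and at most 6.11 in any other library. Tnni3, cardiac troponin I, had 1281 there and 11.6 to 81.3 elsewhere. Myh6, cardiac alpha-myosin, had 2522 there and 144 to 522 elsewhere, Myl4, an atrial light chain, 2989 and 252 to 534, and Tnnt2, cardiac troponin T, 2252 and 227 to 418. In control replicate 4, the other library with a high Ankrd1 count, Myl7 had 1 read and Nppa 9. Myl4 (252) and Tnnt2 (227) had their lowest normalized counts of all libraries there. The median difference of the 12 heart markers tested was 0.86 (limma), with 12 estimates above 0, and it was 0.13 without knockout replicate 8. None of the 12 passed an adjusted p of 0.05 or an unadjusted p under 0.05. The part of these transcripts in the Ankrd1 values was not tested. In bulk tissue, fewer cells of a type and less RNA per cell cannot be told apart.

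Slow-fibre transcripts were high in the libraries where Ankrd2 was high. The summed count of the 10 slow-fibre markers was highest in control replicate 3 (113151), knockout replicate 6 (98734) and knockout replicate 8 (56978), the same 3 libraries that were highest for Ankrd2, and lowest in control replicate 4 (22226), which was also lowest for Ankrd2. Myl3, a slow light chain, ranged from 7151 to 26362 normalized counts in knockout libraries and from 3917 to 21774 in control libraries. Atp2a2, the slow-fibre calcium pump, ranged from 5408 to 13571 in knockout libraries and from 7457 to 30037 in control libraries. Tpm3, slow tropomyosin, ranged from 5160 to 15351 in knockout libraries and from 3415 to 14567 in control libraries. The median difference of the list was 0.33, and single libraries set it. It was 0.72 without control replicate 3, -0.043 without control replicate 4, 0.00089 without knockout replicate 6 and -0.27 without knockout replicates 6 and 8. None of the 10 passed at an adjusted or an unadjusted p of 0.05. The part of fibre type in the Ankrd2 values was not tested.

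**Figure D4:**
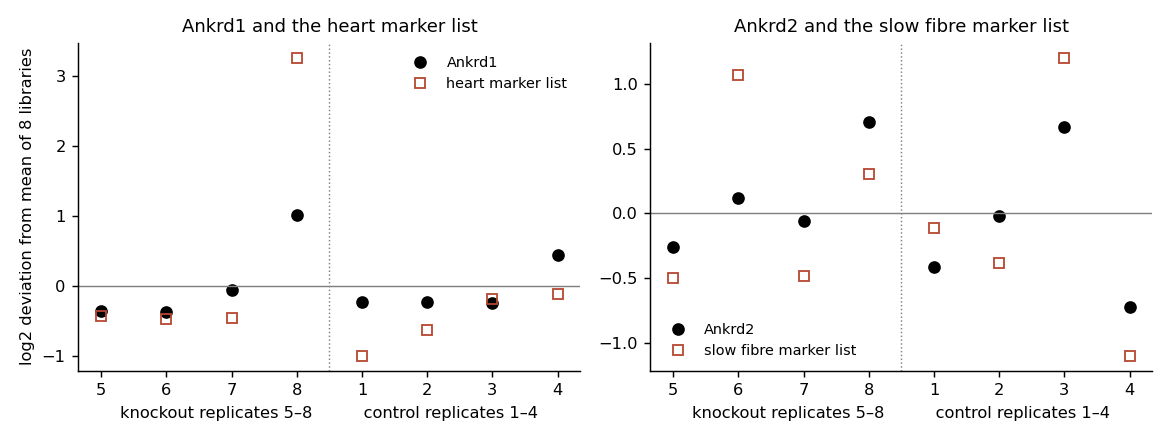
Log2 deviation from the mean of the 8 libraries (vertical axes) by library, knockout replicates left of control replicates, for Ankrd1 with the mean of the 12 tested heart markers and for Ankrd2 with the mean of the 10 slow-fibre markers. The heart markers stand at 3.27 in knockout replicate 8, the library in which Ankrd1 was highest, and the slow-fibre markers at 1.20 in control replicate 3.

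Markers of other cell types had median differences nearer to 0. The median was 0.14 for 12 fast-fibre markers, 0.13 for 10 of satellite cells and myoblasts, 0.04 for 10 of smooth muscle and pericytes and 0.08 for 10 of endothelium. None of these genes passed an adjusted p of 0.05. At an unadjusted p under 0.05, which 13.6% of all tested genes met as higher and 13.3% as lower, 4 fast-fibre markers were higher and 2 lower, 2 satellite-cell markers were higher and 0 lower, 3 smooth-muscle markers were higher and 1 lower, and 4 endothelial markers were higher and 0 lower. Tnnt3, fast troponin T, differed by 0.19 and Atp2a1, the fast-fibre calcium pump, by -0.36. Des, desmin, differed by 0.32, Acta2, smooth-muscle actin, by 0.36, Rgs5, a pericyte gene, by -0.05, and Pecam1, an endothelial adhesion molecule, by -0.13. The 2 satellite-cell markers higher at an unadjusted p under 0.05 were Des and Sdc4. Des averaged 335659 normalized counts and is also among the titin partners described below. Cdh5, the cadherin of endothelium, differed by -0.22 and Kdr, a VEGF receptor, by -0.16. The 4 endothelial markers that were higher at an unadjusted p under 0.05, named after their values were seen, were Cldn5 (0.81), Egfl7 (0.50), Emcn (0.35) and Esam (0.34). Every knockout library lay above every control library for Cldn5 and Emcn, 2 of the 10 endothelial markers, and for 6.06% of all tested genes. The endothelial median was -0.0091 without knockout replicate 8. Sdc4, syndecan-4, was higher in all 4 knockout libraries, at 3240 ± 414 normalized counts there and 2311 ± 133 in control libraries (SD, n = 4 each), with a difference of 0.48 (limma, adjusted p = 0.0796).

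Most estimates for titin and the proteins that share its filament with the ankyrin repeat proteins lay below 0, and none passed the test. Of 33 genes of titin and its Z-disc, I-band and M-band partners, 21 had estimates below 0 and 12 above, with a median log2 difference of -0.16 beside 0.00 over all genes. By limma 0 of the 33 passed an adjusted p of 0.05, at an unadjusted p under 0.05 9 were lower and 3 higher, and every knockout library lay below every control library for 6. Over all tested genes these shares were 13.3% lower and 13.6% higher at that p, and 7.06% with every knockout library lower. Ttn itself had 275825 ± 60297 normalized counts in knockout libraries and 346857 ± 98607 in control libraries (SD, n = 4 each), a difference of -0.32 with a standard error of 0.19. Neb, nebulin, the ruler of the thin filament, had 150248, 119602, 127240 and 106758 in knockout replicates 5 to 8, against 164884, 161379, 281270 and 349855 in control replicates 1 to 4. It differed by -0.86 (limma, adjusted p = 0.0796), with control replicates 3 and 4 far above the other libraries, and by -0.38 without them. With the length and GC trend removed from each library, the difference of Neb was -0.49. Nrap, a nebulin-related anchoring protein, had 61683, 54818, 45560 and 43507 in the knockout libraries, against 70664, 66275, 109266 and 77059 in the control libraries, a difference of -0.64 (limma, adjusted p = 0.0796). Mypn, myopalladin, a Z-disc protein that binds Ankrd1, differed by -0.44 (limma, adjusted p = 0.0867), and Myoz3, a calsarcin of fast fibres, by -0.52 (limma, adjusted p = 0.0796). Capn3, the titin-bound muscle calpain, had 7671 to 8199 normalized counts in knockout libraries and 8748 to 12134 in control libraries, which did not overlap, with a difference of -0.37. Without control replicates 3 and 4, Mypn differed by -0.24, Myoz3 by -0.34, Nrap by -0.43, Capn3 by -0.16 and Ttn by -0.085, and the median of the list was -0.047. With the length and GC trend removed, Ttn differed by 0.20, the opposite direction.

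Genes that respond to load, stretch or injury had estimates on both sides of 0. Of 23, 16 had estimates above 0 and 7 below, with a median of 0.20. By limma 0 passed an adjusted p of 0.05, and at an unadjusted p under 0.05 3 were higher and 2 lower (13.6% and 13.3% of all tested genes). Every knockout library was higher for 3 of the 23 and lower for 1 (6.06% and 7.06% of all tested genes). Hspb1, a small heat-shock protein that protects titin, had 18788, 19002, 22035 and 24934 normalized counts in knockout replicates 5 to 8, against 15967, 16055, 12539 and 13454 in control replicates 1 to 4. The groups did not overlap, and the difference was 0.55 (limma, adjusted p = 0.0796). With the length and GC trend removed it was 0.16. Mustn1, a small nuclear protein of regenerating muscle, was also higher in all 4 knockout libraries, by 0.44 (limma, adjusted p = 0.111), and by 0.18 with that trend removed and 0.26 without knockout replicate 8. Xirp2, an actin-binding protein of the intercalated disc and myotendinous junction, was lower in all 4, with a difference of -0.58 (limma, adjusted p = 0.0868), and Flnc, filamin C, differed by -0.44 (limma, adjusted p = 0.112). For both, control replicates 3 and 4 were the highest libraries, and without them Xirp2 differed by -0.19 and Flnc by -0.11. The median of the list was 0.097 without this pair and 0.040 with the trend removed.

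The Hippo pathway, whose effectors YAP and TAZ act through TEAD factors at MCAT elements, was described because Ankrd1 is a widely used YAP target. Of its 25 genes and targets, 17 had estimates below 0 and 8 above, with a median of -0.15. By limma 0 passed an adjusted p of 0.05, and at an unadjusted p under 0.05 1 was higher and 4 lower (13.6% and 13.3% of all tested genes). Every knockout library was higher for 1 of the 25 and lower for 2 (6.06% and 7.06% of all tested genes). Sav1, the scaffold of the Hippo kinases, had 908, 831, 831 and 857 normalized counts in knockout replicates 5 to 8, against 1571, 1402, 2096 and 2378 in control replicates 1 to 4. The groups did not overlap, and the difference was -1.09 (standard error 0.16, limma, adjusted p = 0.0587). Ctgf, a YAP target like Ankrd1, had 2951, 3107, 4718 and 3752 in the knockout libraries, against 2659, 2475, 2477 and 1627 in the control libraries, a difference of 0.65 (limma, adjusted p = 0.0796) with no overlap. Nf2, an upstream activator of the kinases, differed by -0.47 (limma, adjusted p = 0.0810), and Vgll4, a TEAD cofactor that competes with YAP, by -0.41 (limma, adjusted p = 0.132). Without control replicates 3 and 4, Sav1 differed by -0.79, Ctgf by 0.48 and Nf2 by -0.26, and the median of the list was -0.023. Vgll4 differed by -0.27 without knockout replicate 8.

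The transcription regulators that bind these proteins or act on their promoters had a list median near that of all genes. Of 21, 19 were tested (Nkx2-5 and Gata4 were too low), with 10 estimates above 0, 9 below and a median of 0.01. By limma 0 passed an adjusted p of 0.05, and at an unadjusted p under 0.05 0 were higher and 4 lower (13.6% and 13.3% of all tested genes). Every knockout library was higher for 0 of the 19 and lower for 3 (6.06% and 7.06% of all tested genes). Mef2a and Mef2c, factors of muscle gene expression, were lower in all 4 knockout libraries, with differences of -0.51 (limma, adjusted p = 0.0810) and -0.32 (limma, adjusted p = 0.116). Six4, a homeobox factor of fast muscle, was also lower in all 4, with a difference of -0.39 (limma, adjusted p = 0.0989). Without control replicates 3 and 4, Mef2a differed by -0.22, Mef2c by -0.16 and Six4 by -0.27. With the length and GC trend removed they differed by -0.21, -0.015 and -0.15 in that order. Mkl1, an actin-regulated cofactor of serum response factor, differed by -0.32 (limma, adjusted p = 0.106). Myod1, a myogenic factor, differed by 0.13, Ybx1, a transcription factor that binds Ankrd1, by -0.11, and Trp53, reported to act with Ankrd2, by 0.14.

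**Figure D5:**
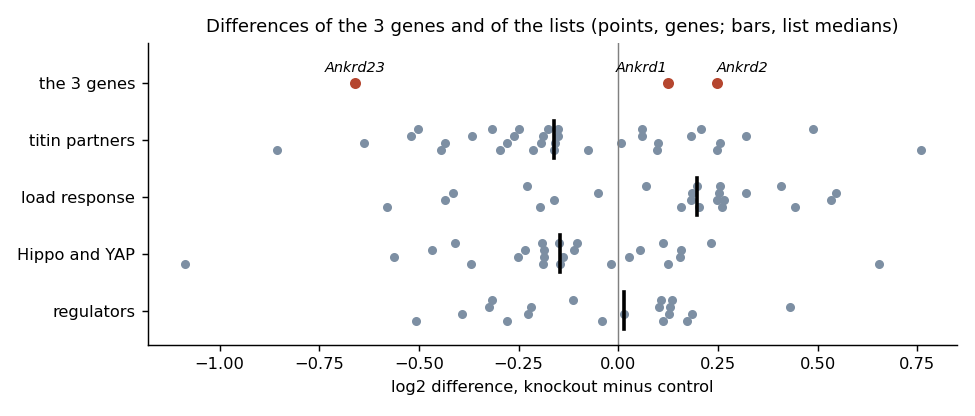
Log2 difference, knockout minus control (horizontal axis), of Ankrd23, Ankrd1 and Ankrd2 (red, top row) and of the tested genes of 4 lists (grey points), with each list's median as a bar. Ankrd23 lies at -0.66, below all but Neb in the titin partner list and below all but Sav1 in the Hippo and YAP list.

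Genes with the pattern most like each member were ranked by the root mean square, over the 8 libraries, of the difference between log2 deviations. The 5 most like Ankrd23, whose own root mean square deviation was 0.35, were Fut8 (0.07), Setdb2 (0.08), Srp54c (0.08), Cog5 (0.09) and Uckl1os (0.09). In all 5, every knockout library lay below every control library. This likeness thus largely restates the contrast from which Ankrd23 was chosen. Fut8, the core fucosyltransferase, had 963, 815, 774 and 899 normalized counts in knockout replicates 5 to 8, against 1276, 1169, 1510 and 1534 in control replicates 1 to 4. Setdb2 is a SET-domain protein, Cog5 a subunit of the Golgi tethering complex and Srp54c 1 of several near-identical Srp54 genes, whose count is uncertain for that reason. The 5 most like Ankrd1 (0.46) were Slc4a3 (0.14), Fbp2 (0.17), Gm29773 (0.17), Abcc8 (0.17) and Sh3bp2 (0.18). Slc4a3, an anion exchanger, was highest in knockout replicate 8 (455) and control replicate 4 (394), as Ankrd1 was. The 5 most like Ankrd2 (0.46) were Gm33489 (0.16), Casq2 (0.22), Fhl1 (0.22), Gm24339 (0.23) and Srp54b (0.24). Gm33489, Gm24339 and Srp54b had low means of 39.2, 14.9 and 16.8 normalized counts, so counting error weighs on their patterns. Srp54b is also 1 of the near-identical Srp54 genes. Casq2, the calsequestrin of slow and cardiac muscle, had 1669, 2637, 3042 and 3802 normalized counts in knockout replicates 5 to 8, against 1961, 2492, 2952 and 1433 in control replicates 1 to 4, and Fhl1, a LIM protein of the I-band, ranged from 27540.1 to 53065 in knockout libraries and from 29254 to 54428 in control libraries.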

How the data were processed

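White quadriceps RNA from 8 libraries was analysed. The tools were cutadapt, FastQC, STAR, HTSeq and DESeq2 on GRCm38, per the submitters' processing notes. Neither versions nor annotation nor strand setting is given there. The deposited values are log2 values, 1 column per library. With the log2 undone and 1 subtracted they are whole multiples of 1 step per library (0.679 to 1.29), as reads divided by a size factor would be, so the scale, log2(normalized count + 1), is inferred. It is not divided by gene length. Of values up to 1000 reads, 100% were within 0.1 of a whole read. Recovered reads numbered 55283997 to 109101290 per library, and 3 reads equal 2.04 to 3.87 normalized counts. Such limits cover counting error only. Over the 12 pairs of libraries within groups, the chi-square per gene was 35.4 to 265, so each library counted as 1 sample. The table had 54091 rows, and 27 gene names turned into dates were restored.

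limma 3.58.1 (R 4.3.3) was run over genes whose normalized count averaged at least 10, on log2(normalized count + 1), with trend and robust options and Benjamini-Hochberg adjustment at 0.05. Differences are knockout minus control, and for low genes this scale understates them. The script was tested on simulated data. limma voom on the recovered reads was an alternative, and it too called Acot2. Other alternatives were pseudocounts, filters, scalings, variance models, libraries left out, and a loess curve on exon length and GC content (span 0.5) removed from each library.

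The members and lists were chosen with earlier results of these data known. Named genes are the members, Acot2, overlapping and adjacent genes, the 4 genes of smallest p in the titin partner, load, Hippo and regulator lists, the 3 most abundant genes and set heart genes in the marker lists, set partners (Ttn, Mypn, Capn3, Myod1, Ybx1, Trp53) and the 5 genes most like each member. Myh7, Tnnc1, Tnnc2, Cldn5, Egfl7, Emcn and Esam were added after their values were seen. Exons came from GENCODE M21 (GRCm38) and promoters from RefSeq, and neither need match the annotation used for counting. Python 3.11.15, numpy 2.4.6, pandas 2.3.3, Biopython 1.88 and matplotlib 3.10.9 served for tables, alignment and plots.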

Additional observations from a re-analysis of the deposited data

Results flagged for a closer look

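In 7 of 40 groups of 4 libraries, 1 library stood far from the other 3 by Dixon's criterion for 4 samples, which flags about 1 in 20 groups by chance. For Ankrd1 this was knockout replicate 8, at 1999.7 normalized counts against 764 to 954 in knockout replicates 5 to 7, and among control libraries replicate 4, at 1347 against 833 to 843. Knockout replicate 8 also stood apart in the heart marker score (3.27, against -0.47 to -0.43), the load response score (0.26, against -0.03 to 0.00) and the endothelial score (0.27, against -0.01 to 0.02), each being the mean log2 deviation of a list's tested genes from their mean over the 8 libraries. Control replicate 4 stood apart in the endothelial score, at -0.20 against -0.04 to -0.02. Hoga1, a neighbour of Ankrd2, had 119 normalized counts in knockout replicate 5, against 83.0 to 88.6 in the other knockout libraries. Neither Ankrd23 nor Ankrd2 had such a library in either group.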

How the results depend on the processing

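Of 946 values under 22 alternatives for 43 results, 872 kept their side of the threshold or moved little. Acot2 passed in all 22, at -3.43 to -3.06. Ankrd23 was -0.83 with the length and GC trend removed, and -0.72 to -0.61 with each replicate left out. Genes called higher numbered 0 as reported, 4 without trend and robust options, 593 with sample quality weights, 1 without knockout replicates 6 and 8, 1 with the length and GC trend removed and 0 to 1024 with each replicate left out (867 without control replicate 1, 1024 without control replicate 2). Genes called lower numbered 1 as reported, 2 with no filter, 2 with equal totals, 3 without trend and robust options, 608 with weights, 3 with the trend removed and 1 to 1024 with each replicate left out (855 and 1024 without control replicates 1 and 2). With weights and without control replicate 1 or 2, Nrap, Myoz3, Neb, Hspb1, Xirp2, Ctgf, Nf2 and Mef2a passed, Mypn and Flnc passed in 2 of these 3 settings, and Sav1 passed in 6 of the 22. Without control replicates 3 and 4 none of these genes passed, and their differences were closer to 0. The cause was not tested.

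List medians moved as follows. Without control replicates 3 and 4, titin partners were -0.047, Hippo genes -0.023 and fast-fibre markers 0.031. Without both and with the trend also removed, they were -0.035, 0.0044 and -0.024 in that order, and without both and knockout replicate 8 they were -0.042, 0.026 and -0.026. Fast-fibre markers were -0.037 and load genes 0.040 once the length and GC trend was taken out. Load genes were 0.056 and satellite-cell markers 0.25 without the 3 libraries. With each replicate left out, fast-fibre markers were 0.055 to 0.19 and smooth-muscle markers -0.024 to 0.20. The setting without these 3 libraries was chosen after seeing the data. No paired analysis was possible because the groups share no replicate number. Reads in exon bases that genes share limit Ankrd23, and single libraries limit Ankrd1 and Ankrd2.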

Other observations

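Of the 5 genes whose pattern over the libraries was most like that of Ankrd23, 3 (Fut8, Srp54c and Cog5) lie on chromosome 12, the chromosome of Acot2, while Ankrd23 itself lies on chromosome 1. Sav1, the list gene with the lowest difference, lies there too. Of the 14450 tested genes with a RefSeq chromosome, 510 (3.53%) lie on chromosome 12. Among the 1033 with every knockout library below every control library, 52 (5.03%) do, and among the 870 with every knockout library above, 25 (2.87%) do. Of the 5 genes most like Ankrd1, 0 lie on chromosome 12, and of the 5 most like Ankrd2, 1, the low-count gene Srp54b. These genes were looked up after their values were seen, and no test was made.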
